A study of Mus musculus with 9 samples.

Results

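The integrated stress response and amino acid supply were followed through 32 named genes in the mouse mammary tumor line D2.OR, a model of dormant tumor cells. The cells grew in 3D in one of 3 matrices: collagen I in fibrillar form, collagen I in non-fibrillar form, or Matrigel, a basement membrane extract. The genes were listed by name: the transcription factors and feedback proteins of the response, the enzymes that make serine, glycine, asparagine, alanine, proline and cysteine, and amino acid transporters. Of the 32, 31 had a probe set among the 19938 genes tested, and Pycr1, a proline synthesis enzyme, had none named in the annotation used here. Each measured gene was read by 1 probe set. Total RNA was hybridised to 9 Affymetrix arrays, 3 per group, and the values are log2 RMA expression levels. No agent or genetic change is named for any group. The Matrigel group is known by its sample titles alone, since the culture label of those arrays gives non-fibrillar collagen I. No label says whether replicates were grown apart, so p-values reflect only how these arrays vary, and that variation may be technical.

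When amino acids run short or misfolded protein builds up, the kinases GCN2 and PERK, among others, phosphorylate the translation initiation factor eIF2. Most translation then slows, while the mRNA of the transcription factor ATF4 is translated more. ATF4, often paired with a C/EBP protein, switches on genes for amino acid synthesis and uptake and for tRNA charging, and in lasting stress also CHOP (gene Ddit3) and its feedback targets. In tumor cells the biosynthetic arm is known for feeding growth, and the CHOP arm for cell death. ATF4 itself is controlled mainly by translation, so the level of its mRNA does not report its activity.

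Cells in both forms of collagen I expressed more of the enzymes Asns, Mthfd2 and Shmt2 than cells in Matrigel. Of these 3 calls in fibrillar collagen, only that of Asns was kept whichever array was left out. In non-fibrillar collagen the cysteine-forming enzyme Cth was 1.87-fold higher than in Matrigel (log2 difference 0.90 ± 0.069 SE, n = 3 arrays per group), and the enzymes Mthfd2, Cbs, Asns, Shmt2, Psph and Psat1 were 1.22-fold to 1.35-fold higher. The acute stress genes Ddit3, Chac1, Trib3, Atf3 and Ppp1r15a did not pass the test in any comparison. Between the collagen forms, Cth was 1.55-fold lower in fibrillar collagen, a call kept with same-numbered arrays paired as a replicate block and whichever array was left out. The transporters Slc38a2 and Slc6a9 and the aminotransferase Gpt2 were 1.14-fold to 1.17-fold higher there, but limma's adjusted p was 0.057, 0.052 and 0.062 with that block, and these calls were also lost without any 1 of the 6 collagen arrays. In bulk RNA, fewer cells of a type and less RNA per cell cannot be told apart.

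A gene was called where limma's adjusted p, taken over all genes, was below 0.05. Genes with an unadjusted limma p below 0.05 are also given in places. The share of all genes at that level was not counted. In non-fibrillar collagen against Matrigel 12 of 31 members were called, 10 higher and 2 lower, where 13.8% of all genes were called, 6.75% higher and 7.07% lower. The fibrillar comparison with Matrigel had 7 calls, 6 higher and 1 lower, where 3.82% of all genes were called, 1.45% higher and 2.37% lower. Between fibrillar and non-fibrillar collagen 5 were called, 3 higher and 2 lower, where 6.40% of all genes were called, 2.71% higher and 3.69% lower. Arrays of both groups lay fully apart, without overlap, for 16, 20 and 13 members in this order, and for 28.4%, 20.4% and 25.2% of all genes. The called members make up 38.7%, 22.6% and 16.1% of those measured. The median difference of the members was 0.083, 0.149 and -0.017 log2 units in this order, against 0.001, 0.003 and 0.008 for all genes. The comparisons share arrays, so their counts are not independent of each other. In all, 16 members were called in at least 1 comparison and 15 in none. The share of all genes called in at least 1 comparison was not counted, so these counts have no background. Leaving out any 1 of the 6 collagen arrays left Cth as the only member called between the collagen forms, and with replicate number as a block, which pairs same-numbered arrays, 2 were called. The count in fibrillar collagen against Matrigel was 3 when fibrillar replicate 1 or 2 or Matrigel replicate 2 or 3 was left out. Of all genes, 289 were higher and 473 lower in that comparison, and 373 and 366 after quantile normalization again. For fibrillar against non-fibrillar collagen 541 were higher and 736 lower, 640 and 612 after quantile normalization again, and 559 and 904 after centring on array medians, so which direction had more calls depended on the scaling.

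**Figure D1:**
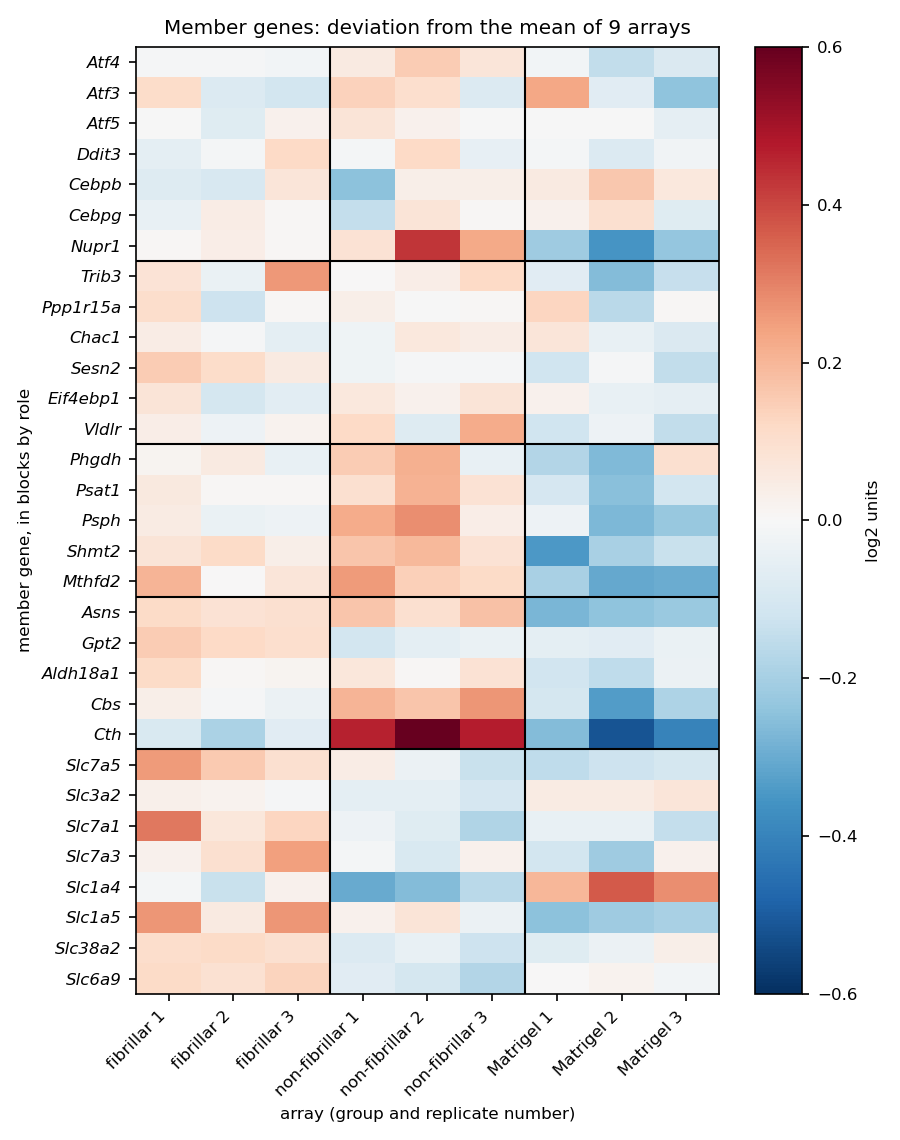
Each row is a member gene, in blocks by role, and each column an array; the color is the deviation of the log2 level from that gene's mean over 9 arrays. The enzymes are mostly above their means in the non-fibrillar arrays and below them in the Matrigel arrays, with Cth ranging over 1.11 log2 units, while most of the transporters are highest in the fibrillar arrays.

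The genes that ATF4 binds often carry a C/EBP-ATF response element, and the promoters were searched for it to show where members could share one. The motif was TGATGNAAN, on both strands of the window from 250 bases before to 50 bases after each start site in RefSeq (GRCm38.p6), and no other motif was searched. It matched 8 of the 27 members in that table (29.6%), against 4.5% of all 27025 genes there and 3.95% of all promoters. The other 5 listed members, Cth, Slc1a5, Slc7a5, Slc7a3 and Eif4ebp1, had no promoter there and were not searched. Members were listed as genes of this response, some as known ATF4 targets, so the higher share is not a test of them. The matched members were Asns, Nupr1, Slc1a4, Atf3, Chac1, Trib3, Vldlr and Pycr1. Shown first are the 250 bases before the start of Asns (chr6:7693210-7693459, minus strand) and of Nupr1 (chr7:126625471-126625720, minus strand), because these called genes carry a match. Sequences read 5′ to 3′ on the gene's strand, and capitals mark the match, which at every gene but Asns and Pycr1 is the motif's reverse complement.
Asns: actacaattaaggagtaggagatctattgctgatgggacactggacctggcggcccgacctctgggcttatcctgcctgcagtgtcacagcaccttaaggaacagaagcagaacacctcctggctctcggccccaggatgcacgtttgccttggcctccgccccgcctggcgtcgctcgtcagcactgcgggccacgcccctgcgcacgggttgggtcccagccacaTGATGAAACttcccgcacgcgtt
Nupr1: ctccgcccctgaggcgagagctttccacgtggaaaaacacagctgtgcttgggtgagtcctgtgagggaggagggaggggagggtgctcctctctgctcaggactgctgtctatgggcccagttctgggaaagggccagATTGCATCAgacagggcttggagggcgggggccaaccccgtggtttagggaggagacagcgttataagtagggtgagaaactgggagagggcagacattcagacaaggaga
The match lay at position -23 from the start site at Asns, and its letters are those of the nutrient-sensing response element described for that gene. At Nupr1 it lay at position -111.

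The remaining matches are shown in shorter windows so that the flanking bases of called and uncalled members can be compared. They are Slc1a4 (chr11:20332695-20332733, minus strand), which was called, Atf3 (chr1:191183421-191183459, minus strand), Chac1 (chr2:119351033-119351071, plus strand), Trib3 (chr2:152344029-152344057, minus strand) and Vldlr (chr19:27216804-27216842, plus strand, at the second of its start sites), which were not, and Pycr1 (chr11:120643828-120643866, minus strand), which was not measured.
Slc1a4: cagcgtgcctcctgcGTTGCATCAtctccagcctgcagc
Atf3: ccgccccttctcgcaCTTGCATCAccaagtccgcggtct
Chac1: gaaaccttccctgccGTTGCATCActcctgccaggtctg
Trib3: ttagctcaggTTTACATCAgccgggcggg
Vldlr: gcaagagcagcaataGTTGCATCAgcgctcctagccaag
Pycr1: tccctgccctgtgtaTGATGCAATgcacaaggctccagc
Of 7 measured members with a match, 3 were called in some comparison: Asns and Nupr1, which were higher against Matrigel, and Slc1a4, which was lower. Of 19 measured members in the table without a match, 10 were called, and the called genes Cth, Slc1a5 and Slc7a5 were not searched. The share of all genes called in any comparison was not counted, so these counts have no background and do not test the motif. The motif was present in members that moved in opposite directions and in members that were not called. The absence of a match says only that these letters are not in this window.

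Among the 7 transcription factors, 2 were called in non-fibrillar collagen against Matrigel, both higher, and 0 in the other comparisons. In non-fibrillar collagen against Matrigel 6.75% of all genes were called higher. Of all genes, 3.82% were called in fibrillar collagen against Matrigel and 6.40% between the collagen forms. Unadjusted p was below 0.05 for Atf4 and Nupr1 between the collagen forms and for Nupr1 in fibrillar collagen against Matrigel. Atf4, the central factor of the response, read 8.68, 8.68 and 8.67 log2 units in fibrillar replicates 1 to 3, 8.74, 8.84 and 8.76 in non-fibrillar and 8.67, 8.54 and 8.60 in Matrigel. All non-fibrillar arrays were above all others, and the fibrillar arrays lay just above the highest Matrigel array. Atf4 was 1.13-fold higher in non-fibrillar collagen than in Matrigel (0.18 ± 0.045 SE, adjusted p = 0.027). That call was lost without non-fibrillar replicate 2 or 3 or Matrigel replicate 2 or 3, with adjusted p up to 0.099, and in a fit of only the 6 arrays compared (0.062).

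Nupr1, a small stress-induced chromatin protein, read 11.93, 11.96 and 11.93 in fibrillar, 12.01, 12.35 and 12.15 in non-fibrillar and 11.71, 11.57 and 11.69 in Matrigel arrays. The 3 groups did not overlap, with non-fibrillar highest and Matrigel lowest. It was 1.43-fold higher in non-fibrillar collagen than in Matrigel (0.52 ± 0.079, adjusted p = 0.0022), a call kept whichever array was left out. The fibrillar difference from Matrigel was 0.29 ± 0.079 (adjusted p = 0.082), and that between the collagen forms was -0.23 ± 0.084 (adjusted p = 0.176).

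Ddit3, which encodes the pro-death factor CHOP, averaged 8.08 ± 0.092 (SD, n = 3) in fibrillar, 8.08 ± 0.089 in non-fibrillar and 8.02 ± 0.037 in Matrigel arrays. The groups overlapped, and the 95% interval of the non-fibrillar minus Matrigel difference ran from -0.08 to 0.19 log2 units. The stress-induced factor Atf3 ranged from 7.37 to 7.84 within the Matrigel group alone, which is its whole range of 0.47 over all 9 arrays. Atf5, which acts in mitochondrial stress, and the C/EBP factors Cebpb and Cebpg, partners of ATF4, were not called in any comparison. Their non-fibrillar minus Matrigel intervals ran from -0.04 to 0.15, from -0.33 to 0.03 and from -0.18 to 0.11.

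Of the 6 feedback regulators and effectors, 0 were called by limma in any comparison. Of all genes, 13.8% were called in non-fibrillar and 3.82% in fibrillar collagen against Matrigel, and 6.40% between the collagen forms. With so few members, a count of 0 is not a result about this role. Unadjusted p was below 0.05 for Sesn2 between the collagen forms, for Trib3 and Sesn2 in fibrillar collagen against Matrigel and for Trib3 and Vldlr in non-fibrillar collagen against Matrigel. Trib3, a pseudokinase that restrains ATF4, was at 7.58, 7.46 and 7.76 in fibrillar, 7.50, 7.54 and 7.62 in non-fibrillar and 7.43, 7.24 and 7.36 in Matrigel arrays. Every collagen array was above every Matrigel array, but the differences missed the threshold, at 0.26 ± 0.078 for fibrillar (adjusted p = 0.110) and 0.21 ± 0.078 for non-fibrillar collagen (adjusted p = 0.115). Sesn2, a sestrin that holds back mTORC1 when leucine is low, was at 7.52, 7.48 and 7.42 in fibrillar, 7.34, 7.36 and 7.36 in non-fibrillar and 7.25, 7.36 and 7.22 in Matrigel arrays. The fibrillar arrays were above all others, and the fibrillar minus Matrigel difference was 0.20 ± 0.048 (adjusted p = 0.057).

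The glutathione-degrading enzyme Chac1, a sensitive readout of ATF4 and CHOP, spanned only 0.16 log2 units over all arrays. Its interval for non-fibrillar collagen minus Matrigel ran from -0.07 to 0.16. Ppp1r15a, the phosphatase subunit that reverses eIF2 phosphorylation, had an interval from -0.15 to 0.20 there, and the translation repressor Eif4ebp1 one from -0.03 to 0.20. The lipoprotein receptor Vldlr, an ATF4 target, was at 0.19 ± 0.071 in non-fibrillar collagen minus Matrigel (adjusted p = 0.126).

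**Figure D2:**
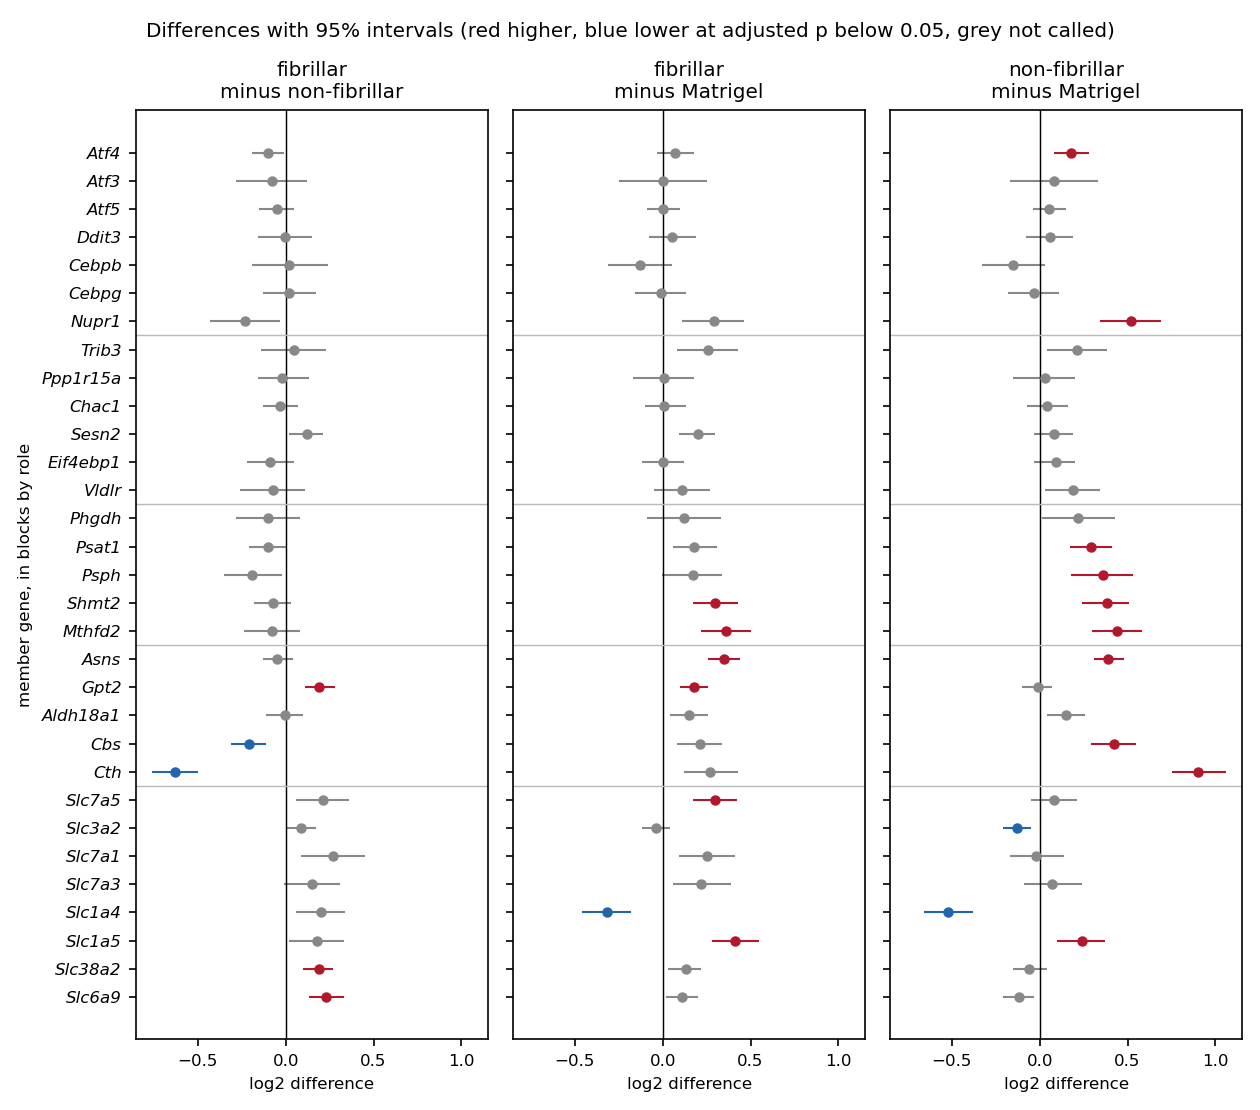
Log2 differences of the 31 measured members (points) with 95% intervals from limma, in 3 panels by comparison. Red and blue mark members called higher and lower; the enzymes other than Gpt2 stand to the right of 0 in the non-fibrillar minus Matrigel panel, while Ddit3 and Chac1 lie close to 0 in all 3.

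Of the 5 serine and one-carbon enzymes, 4 were higher in non-fibrillar collagen than in Matrigel, and 2 of them in fibrillar collagen. Among all genes, 6.75% and 1.45% were higher in these comparisons. In the collagen comparison, where 6.40% of all genes were called, 0 of the 5 were called. All 5 differences there were negative, and Psph alone had an unadjusted p below 0.05. Mthfd2, the mitochondrial folate enzyme that tumor cells re-express, read 9.25, 9.05 and 9.12 in fibrillar, 9.30, 9.19 and 9.16 in non-fibrillar and 8.85, 8.74 and 8.75 in Matrigel arrays. All 6 collagen arrays were above all Matrigel arrays, and the collagen forms overlapped. It was 1.35-fold higher in non-fibrillar (0.44 ± 0.063, adjusted p = 0.0016) and 1.28-fold higher in fibrillar collagen (0.36 ± 0.063, adjusted p = 0.015). The fibrillar call was lost without Matrigel replicate 2 or 3 (adjusted p up to 0.065).

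Shmt2 feeds the same pathway by turning serine into glycine in mitochondria. Its levels were 10.13, 10.17 and 10.09 in fibrillar, 10.22, 10.25 and 10.14 in non-fibrillar and 9.71, 9.86 and 9.92 in Matrigel arrays. Again both collagen groups were above Matrigel without overlap. Shmt2 was 1.30-fold higher in non-fibrillar (0.38 ± 0.059, adjusted p = 0.0025) and 1.23-fold higher in fibrillar collagen (0.30 ± 0.059, adjusted p = 0.023). The fibrillar call was lost without any fibrillar array or Matrigel replicate 2 (adjusted p up to 0.077), and in a fit of only the 6 arrays compared (0.063).

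Phgdh, Psat1 and Psph carry out the steps of serine synthesis in this order. Psat1 read 10.22, 10.17 and 10.17 in fibrillar, 10.26, 10.37 and 10.25 in non-fibrillar and 10.06, 9.91 and 10.05 in Matrigel arrays, with no overlap between any groups. It was 1.22-fold higher in non-fibrillar collagen than in Matrigel (0.29 ± 0.054, adjusted p = 0.0065), and this held whichever array was left out. Psph read 9.13, 9.04 and 9.05 in fibrillar, 9.30, 9.36 and 9.12 in non-fibrillar and 9.05, 8.81 and 8.85 in Matrigel arrays. Its non-fibrillar arrays were above all Matrigel arrays, and it was 1.28-fold higher there (0.36 ± 0.078, adjusted p = 0.013). The call was lost without non-fibrillar replicate 1 or 2 or Matrigel replicate 2 or 3 (adjusted p up to 0.060). Phgdh, the entry enzyme, read 8.48 and 8.39 in Matrigel replicates 1 and 2 but 8.75 in replicate 3, which lay within the collagen range of 8.61 to 8.87. Its difference from Matrigel was 0.22 ± 0.094 in non-fibrillar collagen (adjusted p = 0.165).

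Asns, which makes asparagine and is a classical ATF4 target, was called against Matrigel in both collagens. It read 10.93, 10.90 and 10.91 in fibrillar, 10.98, 10.91 and 10.99 in non-fibrillar and 10.54, 10.57 and 10.59 in Matrigel arrays. The collagen groups overlapped and both stood clear of Matrigel. Asns was 1.31-fold higher in non-fibrillar (0.39 ± 0.039, adjusted p = 2.1e-04) and 1.27-fold higher in fibrillar collagen (0.35 ± 0.039, adjusted p = 0.0015), whichever array was left out. Between the collagen forms the difference was -0.05 ± 0.037 (adjusted p = 0.516), with an interval from -0.13 to 0.04.

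Cbs and Cth form cysteine from homocysteine, the transsulfuration route, and were the enzymes that separated the collagen forms downward. Cth read 7.33, 7.23 and 7.35 in fibrillar, 7.88, 8.02 and 7.89 in non-fibrillar and 7.16, 6.90 and 7.02 in Matrigel arrays. The 3 groups did not overlap, with the non-fibrillar group far above the others. In non-fibrillar collagen against Matrigel its difference of 0.90 ± 0.069 (adjusted p = 4.6e-05) ranked 17 from the top among 19938 genes. Between fibrillar and non-fibrillar collagen it was -0.63 ± 0.054 (adjusted p = 0.0053; with the replicate block, 0.023), rank 47 from the bottom. These calls were kept whichever array was left out. The fibrillar minus Matrigel difference was 0.27 ± 0.069 (adjusted p = 0.063).

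Cbs, the step before Cth, read 7.32, 7.28 and 7.25 in fibrillar, 7.49, 7.45 and 7.55 in non-fibrillar and 7.18, 6.95 and 7.10 in Matrigel arrays. As for Cth, the groups did not overlap and the non-fibrillar group was highest. It was 1.34-fold higher in non-fibrillar collagen than in Matrigel (0.42 ± 0.059, adjusted p = 0.0014), kept whichever array was left out. Fibrillar collagen had 1.16-fold less of it than the non-fibrillar form (-0.21 ± 0.041, adjusted p = 0.036). That call was lost with replicate number as a block (adjusted p = 0.062), after quantile normalization again (0.053), in a fit of all 9 arrays (0.057) and without any 1 of the 6 arrays (adjusted p up to 0.111).

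Gpt2, the mitochondrial alanine aminotransferase, had another order. It read 9.89, 9.86 and 9.84 in fibrillar, 9.63, 9.68 and 9.70 in non-fibrillar and 9.68, 9.67 and 9.70 in Matrigel arrays. The fibrillar arrays were above all others, which overlapped. Gpt2 was 1.14-fold higher in fibrillar than in non-fibrillar collagen (0.19 ± 0.035, adjusted p = 0.030) and 1.13-fold higher than in Matrigel (0.18 ± 0.037, adjusted p = 0.029). The first call was lost with replicate number as a block (adjusted p = 0.062) and without any 1 of the 6 arrays (up to 0.093), and the second without any fibrillar or Matrigel array (up to 0.094) and in a fit of only the 6 arrays compared (0.060). Aldh18a1, which starts proline synthesis, was not called, at 0.15 ± 0.049 for non-fibrillar collagen minus Matrigel (adjusted p = 0.069).

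**Figure D3:**
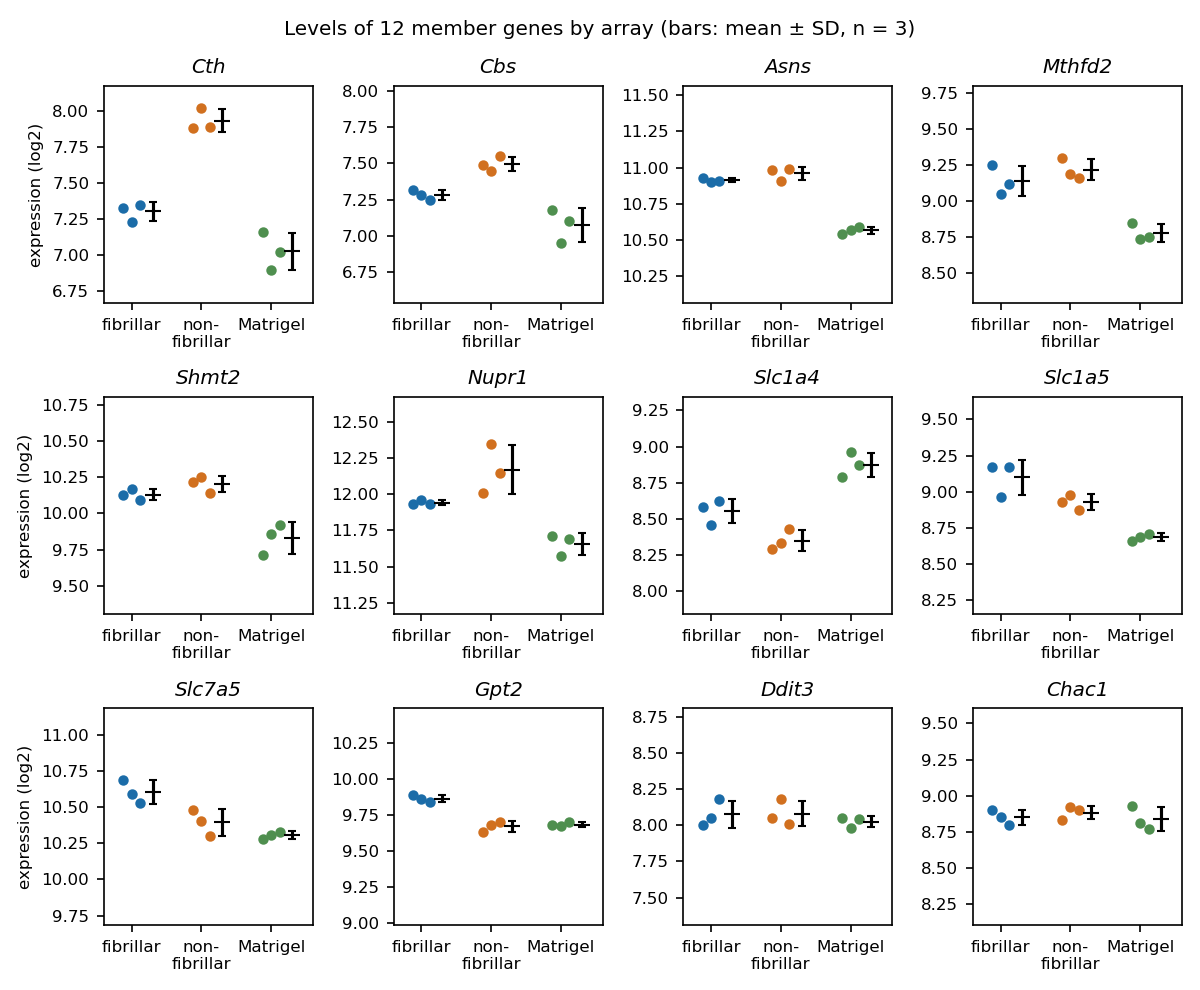
Log2 levels of 12 members by array (points) with the mean and SD of each group (black, n = 3); every panel spans 1.5 log2 units. Cth and Cbs are highest in non-fibrillar collagen, Asns, Mthfd2 and Shmt2 lie at like levels in both collagens and lower in Matrigel, Slc1a4 is highest in Matrigel, and Ddit3 and Chac1 overlap between groups.

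The 8 amino acid transporters were ordered otherwise than the enzymes. All 8 differences between fibrillar and non-fibrillar collagen were positive, with a median of 0.193 against 0.008 for all genes, and 2 were called, where 2.71% of all genes were called higher. The groups did not overlap for 6 of the 8, where 25.2% of all genes did not overlap. Slc38a2, the transporter of small neutral amino acids that responds to starvation, read 11.82, 11.83 and 11.81 in fibrillar, 11.63, 11.67 and 11.59 in non-fibrillar and 11.64, 11.68 and 11.75 in Matrigel arrays. The fibrillar arrays were above all others. Its fibrillar minus non-fibrillar difference was 0.19 ± 0.037 (1.14-fold, adjusted p = 0.037). Its fibrillar minus Matrigel difference was not called, at 0.13 ± 0.043 (adjusted p = 0.142).

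The glycine transporter Slc6a9 read 10.23, 10.21 and 10.25 in fibrillar, 10.05, 10.01 and 9.94 in non-fibrillar and 10.12, 10.14 and 10.10 in Matrigel arrays. The groups did not overlap, with fibrillar highest and non-fibrillar lowest. It was 1.17-fold higher in fibrillar than in non-fibrillar collagen (0.23 ± 0.041, adjusted p = 0.028). For Slc38a2 and Slc6a9 the call was lost without any 1 of the 6 arrays (adjusted p up to 0.108 and 0.096) and with replicate number as a block (adjusted p = 0.057 and 0.052). Against Matrigel, Slc6a9 was not called in the main fits. The difference was 0.11 ± 0.041 in fibrillar (adjusted p = 0.187) and -0.12 ± 0.041 in non-fibrillar collagen (adjusted p = 0.094).

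Slc7a5 and Slc3a2 are the light and heavy chains of the LAT1 exchanger of large neutral amino acids. Slc7a5 read 10.69, 10.59 and 10.53 in fibrillar, 10.48, 10.40 and 10.30 in non-fibrillar and 10.28, 10.31 and 10.33 in Matrigel arrays. The fibrillar arrays were above all others. It was 1.23-fold higher in fibrillar collagen than in Matrigel (0.30 ± 0.057, adjusted p = 0.022), a call lost without fibrillar replicate 1 or 2 or any Matrigel array (up to 0.073). Against non-fibrillar collagen it was at 0.21 ± 0.063 (adjusted p = 0.108), and passed with replicate number as a block (adjusted p = 0.043). It also passed there in a fit of all 9 arrays and when only genes above the median mean were tested. Slc3a2 read 11.79, 11.78 and 11.75 in fibrillar, 11.70, 11.70 and 11.66 in non-fibrillar and 11.81, 11.81 and 11.83 in Matrigel arrays. The non-fibrillar arrays were the lowest. It was 1.09-fold lower in non-fibrillar collagen than in Matrigel (-0.13 ± 0.036, adjusted p = 0.045), a call kept only without fibrillar replicate 3 (up to 0.127 otherwise) and lost after centring on array medians (0.056), with the block (0.060) and in a fit of only the 6 arrays compared (0.060).

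Slc1a5 and Slc1a4 are related exchangers of small neutral amino acids, and against Matrigel they went opposite ways. Slc1a5, which carries glutamine, read 9.17, 8.96 and 9.17 in fibrillar, 8.93, 8.98 and 8.87 in non-fibrillar and 8.66, 8.69 and 8.71 in Matrigel arrays. Every collagen array was above every Matrigel array. It was 1.33-fold higher in fibrillar (0.41 ± 0.060, adjusted p = 0.0062), kept whichever array was left out, and 1.18-fold higher in non-fibrillar collagen (0.24 ± 0.060, adjusted p = 0.026). The non-fibrillar call was lost without non-fibrillar replicate 1 or 2 or any Matrigel array (up to 0.096).

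Slc1a4, which carries serine and alanine, read 8.58, 8.46 and 8.62 in fibrillar, 8.29, 8.33 and 8.43 in non-fibrillar and 8.79, 8.96 and 8.87 in Matrigel arrays. The groups did not overlap, and Matrigel was highest. It was 1.44-fold lower in non-fibrillar (-0.52 ± 0.062, adjusted p = 5.9e-04), kept whichever array was left out, and 1.25-fold lower in fibrillar collagen (-0.32 ± 0.062, adjusted p = 0.022). The fibrillar call was lost without fibrillar replicate 1 or 2 or Matrigel replicate 2 or 3 (up to 0.081), and in a fit of only the 6 arrays compared (0.058). The arginine and lysine transporters Slc7a1 and Slc7a3 were not called in the main fits. In fibrillar collagen against Matrigel both passed with replicate number as a block (adjusted p = 0.042 and 0.045). Between the collagen forms Slc7a1 passed in a fit of all 9 arrays and when only genes above the median mean were tested. Slc7a1 was at 9.45 to 9.70 in fibrillar, 9.20 to 9.35 in non-fibrillar and 9.24 to 9.34 in Matrigel arrays, so that the fibrillar group stood above the others, with 0.27 ± 0.076 against non-fibrillar collagen (adjusted p = 0.098). Slc7a3 lay between 5.14 and 5.60, under the median gene of 6.44.

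**Figure D4:**
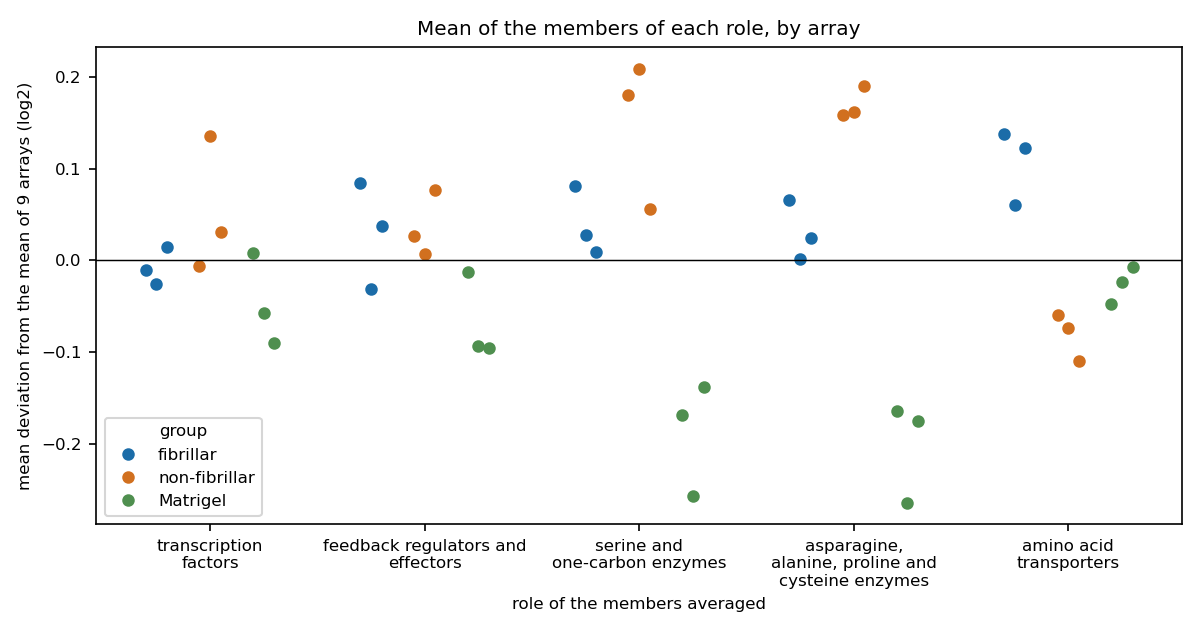
For each role, the points give the mean over its measured members of the deviation from the 9-array mean, in log2 units, for every array. The enzyme roles lie at 0.056 to 0.209 in the non-fibrillar arrays and -0.264 to -0.138 in the Matrigel arrays, while the transporters lie at 0.060 to 0.138 in the fibrillar and -0.110 to -0.060 in the non-fibrillar arrays.

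Around the members, 7 further lists of the pathway were counted. Of 17 measured genes for the kinases and the eIF2 machinery, 5 (29.4%) were called in non-fibrillar collagen against Matrigel, 3 higher and 2 lower. The share of all genes called there was 13.8%. Impact, an inhibitor of GCN2 activation, was 1.32-fold lower (-0.40 ± 0.043, adjusted p = 3.2e-04), and Eif2ak3, which encodes PERK, 1.16-fold lower (-0.22 ± 0.045, adjusted p = 0.010). Eif2b3, a subunit of the eIF2 exchange factor, was 1.17-fold higher (0.23 ± 0.053, adjusted p = 0.018). Between the collagen forms Impact was higher in fibrillar collagen (0.25 ± 0.039, adjusted p = 0.020) and Eif2b3 lower (-0.26 ± 0.057, adjusted p = 0.046, and 0.072 with the block). These were the 2 of 17 (11.8%) called between the collagen forms, where 6.40% of all genes were called. In fibrillar collagen against Matrigel, where 3.82% of all genes were called, limma called 0 of the 17. An unadjusted p below 0.05 was found for 2 of the 17, and the share of all genes at that level was not counted.

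Aminoacyl-tRNA synthetases load amino acids onto tRNA and include many ATF4 targets. In non-fibrillar collagen against Matrigel 6.75% of all genes were higher and 7.07% lower. Of 17 measured cytosolic synthetases, 5 were higher and 0 lower there. All 17 differences were positive, with a median of 0.139, and 15 did not overlap, where 28.4% of all genes did not overlap. Fibrillar collagen against Matrigel gave 4 higher and 0 lower, with a median of 0.089, where 1.45% of all genes were higher and 2.37% lower. Between the collagen forms, where 6.40% of all genes were called, limma called 0, and 14 differences were negative. An unadjusted p below 0.05 was found for 4 synthetases there, and the share of all genes at that level was not counted. Gars, for glycine, was 1.25-fold higher in non-fibrillar (0.33 ± 0.045, adjusted p = 0.0013) and 1.17-fold higher in fibrillar collagen (0.22 ± 0.045, adjusted p = 0.027). Cars, for cysteine, was 1.20-fold and 1.19-fold higher (adjusted p = 0.0036 and 0.015), Farsb, a subunit for phenylalanine, 1.16-fold higher in non-fibrillar (adjusted p = 0.010) and Eprs, for glutamate and proline, 1.18-fold higher in fibrillar collagen (adjusted p = 0.039).

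Other genes known as ATF4 or CHOP targets went both ways. Of 15 measured, 3 were higher and 4 lower in non-fibrillar collagen than in Matrigel, and 0 higher and 3 lower in fibrillar collagen. Among all genes, 6.75% were higher and 7.07% lower in the first comparison, and 1.45% and 2.37% in the second. Heme oxygenase Hmox1, which NRF2 also controls, was 2.03-fold lower in non-fibrillar (-1.02 ± 0.068, adjusted p = 2.1e-05) and also lower in fibrillar collagen (-0.59 ± 0.068, adjusted p = 0.0019). It was 1.35-fold higher in fibrillar than in non-fibrillar collagen (0.43 ± 0.067, adjusted p = 0.020). No other gene of the 15 was called between the collagen forms. That is 6.67% called, near the 6.40% of all genes. The growth arrest gene Gadd45a was 1.79-fold and 1.57-fold lower than in Matrigel in non-fibrillar and fibrillar collagen (adjusted p = 3.5e-05 and 5.7e-04). The cystine importer Slc7a11 was 1.39-fold and 1.28-fold lower (adjusted p = 5.9e-04 and 0.0095), opposite in direction to the cysteine-forming enzymes Cth and Cbs in non-fibrillar collagen.

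In non-fibrillar collagen against Matrigel 7.07% of all genes were lower and 6.75% higher. Of 18 other amino acid transporters, 5 were lower and 0 higher there. The largest of the named ones was Slc43a2, a carrier of large neutral amino acids, 2.05-fold lower (-1.03 ± 0.110, adjusted p = 3.2e-04) and 1.74-fold lower in fibrillar collagen (-0.80 ± 0.110, adjusted p = 0.0044). The lysosomal exporter Slc36a1 (-0.54 ± 0.067) and the taurine transporter Slc6a6 (-0.44 ± 0.044) were also lower in non-fibrillar collagen. Between the collagen forms 3 were higher and 0 lower in fibrillar collagen: Slc6a6 (0.35 ± 0.032, adjusted p = 0.0058), Slc36a1 (0.40 ± 0.065, adjusted p = 0.022, and its call was lost with the block) and Slc43a1 (0.42 ± 0.084, adjusted p = 0.040). The shares of all genes were 2.71% higher and 3.69% lower there. Slc43a1 was also higher in fibrillar collagen than in Matrigel (0.39 ± 0.087, adjusted p = 0.041).

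In non-fibrillar collagen against Matrigel 6.75% of all genes were higher and 7.07% lower. Of 17 other amino acid enzymes, 5 were higher and 0 lower there. They included the branched-chain aminotransferase Bcat1, 1.46-fold higher (0.54 ± 0.057, adjusted p = 3.0e-04), ornithine decarboxylase Odc1, 1.27-fold higher (0.34 ± 0.043), and ornithine aminotransferase Oat, 1.24-fold higher (0.31 ± 0.057). Bcat1 (-0.31 ± 0.042, adjusted p = 0.014) and Odc1 (-0.28 ± 0.044, adjusted p = 0.020) were the 2 called between the collagen forms, both lower in fibrillar collagen. They make up 11.8% of the 17, where 6.40% of all genes were called. In fibrillar collagen against Matrigel, where 3.82% of all genes were called, limma called 0 of the 17. An unadjusted p below 0.05 was found for 5 of the 17, and the share of all genes at that level was not counted.

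Among 17 other sestrins and regulators of mTORC1, the kinase complex that senses amino acids, 7 were lower and 1 higher in non-fibrillar collagen than in Matrigel, where 7.07% of all genes were lower. Fnip2, partner of folliculin at the lysosome, was 1.69-fold lower (-0.76 ± 0.048, adjusted p = 1.7e-05), the mTOR inhibitor Deptor 1.68-fold lower (-0.75 ± 0.062) and the Rag GTPase Rragd 1.62-fold lower (-0.69 ± 0.064). These 3 were also lower in fibrillar collagen than in Matrigel, at -0.27 ± 0.048, -0.40 ± 0.062 and -0.34 ± 0.064 (adjusted p = 0.017, 0.0077 and 0.019). Between the collagen forms 4 were higher and 1 lower in fibrillar collagen, with Fnip2 at 0.49 ± 0.036 (adjusted p = 0.0042), Deptor at 0.35 ± 0.051 and the secretory GTPase Sar1b at -0.29 ± 0.035. The shares of all genes were 2.71% higher and 3.69% lower there.

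In the other branches of the endoplasmic reticulum stress response, 7 of 16 genes were higher and 2 lower in non-fibrillar collagen than in Matrigel. Among all genes, 6.75% were higher and 7.07% lower there. The chaperone cofactor Sdf2l1 was 1.38-fold higher (0.46 ± 0.058, adjusted p = 7.4e-04), and the sensor Ern1 (-0.34 ± 0.048) and the degradation adaptor Sel1l (-0.26 ± 0.040) were lower. In fibrillar collagen against Matrigel 0 were higher and 2 lower, Ern1 (-0.26 ± 0.048, adjusted p = 0.018) and the co-chaperone Dnajb9 (-0.30 ± 0.051, adjusted p = 0.013). The shares of all genes were 1.45% higher and 2.37% lower there. Between the collagen forms Sdf2l1 (-0.33 ± 0.053, adjusted p = 0.022) and Creld2 (-0.21 ± 0.043, adjusted p = 0.043) were lower and Sel1l higher (0.22 ± 0.034, adjusted p = 0.019) in fibrillar collagen. Of the genes named from these 7 lists, 20 of 21 kept their call in non-fibrillar collagen against Matrigel whichever array was left out, Eif2b3 being the exception. For fibrillar collagen against Matrigel 5 of 13 did (Slc7a11, Gadd45a, Hmox1, Slc43a2 and Deptor), and between the collagen forms 2 of 14 (Slc6a6 and Fnip2). The fibrillar calls of Eprs, Gars and Fnip2 against Matrigel were lost in a fit of only the 6 arrays compared (adjusted p = 0.108, 0.059 and 0.059). The calls of Creld2 and Odc1 between the collagen forms were lost, the former after quantile normalization again (adjusted p = 0.108) and the latter with probe sets averaged (0.052).

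**Figure D5:**
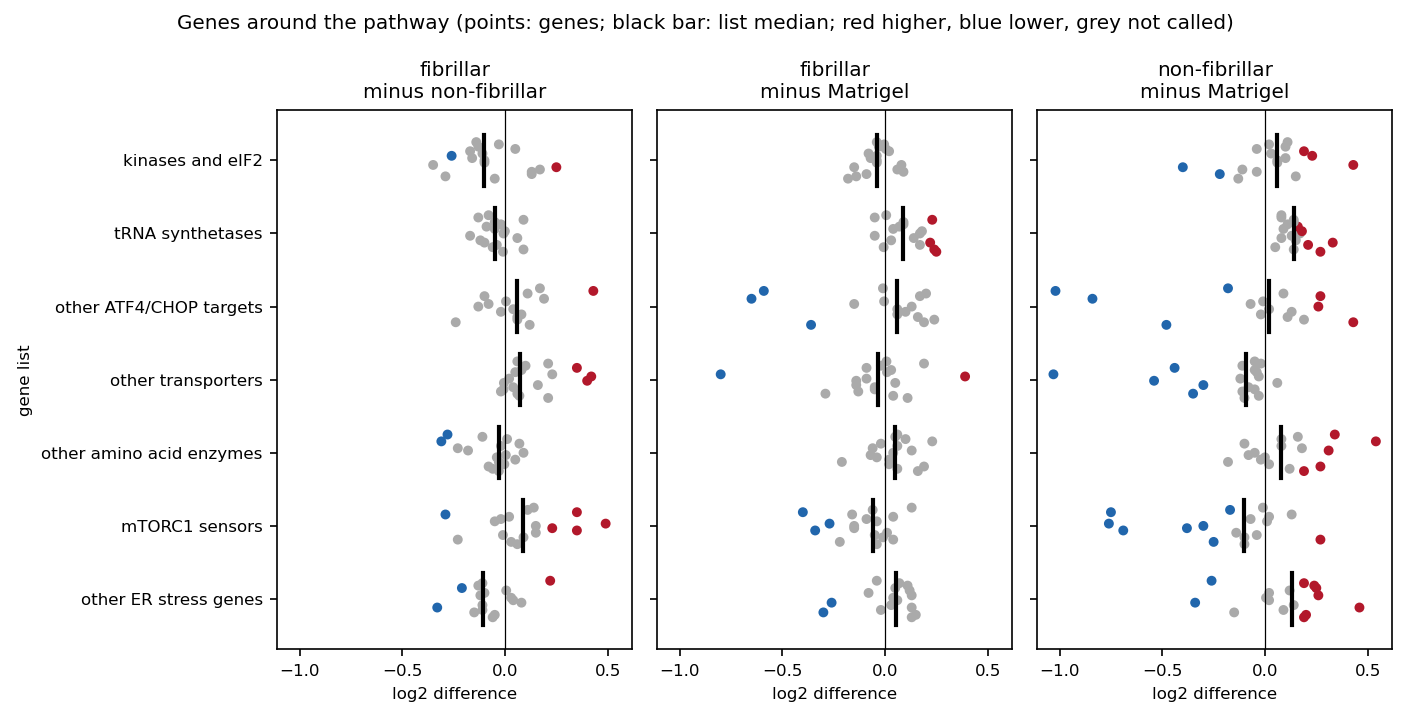
Log2 differences of the genes of 7 pathway lists (points) in the 3 comparisons, with the list median as a black bar; red and blue mark genes called higher and lower. The 17 tRNA synthetases lie to the right of 0 in the non-fibrillar minus Matrigel panel, with a median of 0.139, and the other transporters lie mostly to its left.

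The deposited table held 35512 probe sets with array medians from 5.98 to 6.05 log2 units. The labelled epithelial origin was compared with markers: over 9 arrays Krt8 averaged 13.22, Krt18 12.79, Krt14 11.37 and Cdh1 9.06, against 6.44 for the median gene, while Epcam (6.08), Cldn3 (6.40), Krt19 (5.37), Krt5 (5.74), Esr1 (5.45) and Elf5 (4.83) were under it. Of the markers of other cell types, Ptprc, Adgre1, Pecam1, Adipoq and Dcn averaged at most 4.97, and RMA values have no 0. Some other markers of those lists were well above the median gene: Pdgfra (10.80), Pparg (9.66), Lpl (9.33) and Pnpla2 (9.20). Col1a1 (8.68), Cd68 (8.36), Pdgfrb (7.88) and Cd14 (7.78) were also above it. The mean level of 9 adipocyte markers was 6.79 to 6.85 in Matrigel, 6.61 to 6.70 in fibrillar and 6.49 to 6.52 in non-fibrillar arrays, and 4 of 9 were lower in non-fibrillar collagen than in Matrigel. The mean of 10 macrophage markers was 5.33 to 5.39, 5.27 to 5.36 and 5.22 to 5.25 in this order, that of 10 fibroblast markers 6.09 to 6.20, 6.06 to 6.14 and 5.95 to 6.03, and that of 10 endothelial markers 5.42 to 5.45, 5.44 to 5.48 and 5.36 to 5.41. The mean of 12 mammary epithelial markers was 8.01 to 8.03, 8.13 to 8.16 and 8.16 to 8.20. In non-fibrillar collagen against Matrigel, where 13.8% of all genes were called, 4 epithelial markers were higher and 1 lower. There, 1 macrophage marker was higher and 1 lower, and 1 fibroblast and 1 endothelial marker were lower. The part of these shifts in the results was not tested. The Matrigel samples were numbered apart from the others by the archive, and a batch along that line and the matrix cannot be told apart.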

How the data were processed

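Total RNA of 9 samples, 3 arrays per group, was measured on Affymetrix arrays. The authors deposited log2 RMA levels of each probe set, and the submitters' processing notes name Affymetrix Power Tools as the software. Its version, and whether 1 run held all arrays, is not given in the sources used here. RMA pulls the arrays towards 1 distribution, which can hide a shift shared by most genes. Probe sets with 1 symbol in the platform annotation (21789 of 35512; 1621 had several and 12102 were unlisted) were kept, and the probe set with the highest mean stood for a gene. Limma 3.58.1 in R 4.3.3 (lmFit, eBayes, two-sided, Benjamini-Hochberg over all genes) was used. It was fitted to the 6 collagen arrays for the collagen comparison and to all 9 for those with Matrigel. The same steps were run on simulated data with independent noise and known shifts in the fibrillar arrays alone. Non-fibrillar collagen against Matrigel and variation shared by arrays were not simulated, so that run does not check the calls reported here. Folds were back-transformed from log2 differences. Array number limits the precision.

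The members and gene lists were chosen with earlier results of these data known, so no list was tested: counts and medians stand beside those of all genes. All members are named, and from each list up to 3 called genes with the smallest p per comparison. Symbols of the lists that the annotation names otherwise were matched through RefSeq synonyms. Deviations from group means of same-numbered fibrillar and non-fibrillar arrays correlated across genes at r = 0.221, 0.143 and 0.242. Differently numbered arrays were not compared and no label states a pairing, so these values cannot show one. The main fits have no block, and the numbers were used as a block in an alternative fit. The closest arrays differed by 0.081 log2 units on average, so none was a duplicate. Alternatives were the arrays fitted, a replicate block, quantile normalization again, median centring, a filter on dim genes, averaged probe sets, a trended robust prior, a stricter threshold and leaving out each array.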

Additional observations from a re-analysis of the deposited data

How the results depend on the processing

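The calls between the collagen forms depend most on the settings. The count of called genes was 1277 there, 2211 when only genes above the median mean were tested, 168 at an adjusted p below 0.01, and 150 to 569 with 1 array left out; the count of called members was 5, and 8, 1 and 1 under these settings. In fibrillar collagen against Matrigel the count of 762 genes became 460 in a fit of only the 6 arrays compared, 1264 above the median mean, 239 at the stricter threshold and 353 to 718 with 1 array left out; the count of 7 members became 13 above the median mean, 2 at the stricter threshold and 3 to 8. In non-fibrillar collagen against Matrigel the count of 2755 genes became 1419 at the stricter threshold and 1814 to 2637 with 1 array left out, and that of 12 members 8 to 12 with 1 array left out. With replicate number as a block, 2, 9 and 11 members were called in fibrillar against non-fibrillar collagen and in fibrillar and non-fibrillar collagen against Matrigel. No label states that the numbers pair arrays with Matrigel, and the correlations cannot show it (r = 0.253, 0.103 and 0.097 for fibrillar, 0.125, 0.045 and 0.135 for non-fibrillar arrays). Some members uncalled in the main fits passed under other settings. In fibrillar collagen against Matrigel they included Nupr1 in a fit of only the 6 arrays compared, and Cth and Sesn2 after quantile normalization again. Causes of these changes were not tested.

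Members that changed sign were uncalled. After quantile normalization again, Ddit3 (0.020) and Aldh18a1 (0.013) between the collagen forms and Atf3 (0.032), Cebpg (0.027) and Eif4ebp1 (0.013) in fibrillar collagen against Matrigel were positive, and after median centring Atf5 was at -0.002 there. With 1 array left out, the range crossed 0 between the collagen forms for Aldh18a1 (-0.039 to 0.018), Cebpb (-0.071 to 0.069), Cebpg (-0.040 to 0.070), Ddit3 (-0.056 to 0.046), Ppp1r15a (-0.072 to 0.044) and Trib3 (-0.032 to 0.115). For fibrillar collagen against Matrigel they were Atf3 (-0.107 to 0.127), Atf5 (-0.020 to 0.033), Cebpg (-0.058 to 0.025), Chac1 (-0.020 to 0.059), Eif4ebp1 (-0.056 to 0.037) and Ppp1r15a (-0.070 to 0.077). For non-fibrillar collagen against Matrigel they were Atf3 (-0.027 to 0.207), Cebpg (-0.083 to 0.027), Gpt2 (-0.028 to 0.003), Ppp1r15a (-0.053 to 0.094) and Slc7a1 (-0.049 to 0.026). The 3 arrays per group limit what can be called, and Slc7a3, under the median gene, lies where background weighs most.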
